A study of Homo sapiens with 18 samples.

Results

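Aminoacyl-tRNA synthetases are the enzymes that attach each amino acid to its transfer RNA. Human cells keep one set of them in the cytoplasm and a second set, encoded by separate nuclear genes and imported after synthesis, in the mitochondria. The genes described here were 35 named synthetase genes, 19 cytoplasmic (including those that serve both compartments) and 16 mitochondrial, whose symbols end in 2. The rule that defines them uses names and no measured value, but the set was taken up with earlier results of these data known. A gene was measured where the array carried a probe set annotated with that symbol alone, and its brightest such probe set, by the mean of 18 arrays, stood for it. Of the 35 genes, 32 were measured in this way, 17 cytoplasmic and 15 mitochondrial, out of 10717 genes tested in all. MARS1, QARS1 and TARS2, which charge methionine, glutamine and mitochondrial threonine, had only probe sets annotated with several symbols and were not analysed here. All 32 measured genes reached the minimum level used for testing, a mean of at least 4 on the log2 scale in at least 1 group.

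The values come from 18 Affymetrix arrays of HK-2 cells, an immortalised line of human renal proximal tubular epithelium. The groups were CsA for 12 h, vehicle control for 12 h, CsA for 24 h, control for 24 h, CsA for 48 h and control for 48 h, with 3 biological replicates in each. CsA is the usual abbreviation of cyclosporin A, an immunosuppressant known for its toxicity to the kidney. Its dose, the vehicle's name and whether replicates were separate cell stocks are not given in the sources used here, and the p-values measure only the spread between these cultures. CsA and control cultures alike were kept with epidermal growth factor, insulin, transferrin, selenite and hydrocortisone, were plated a day before treatment and were nearly confluent when treated, and all came from 1 laboratory.

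In the cytoplasm a synthetase pairs its amino acid with the matching transfer RNA for the ribosome, and several of these enzymes sit together in the multisynthetase complex. When uncharged transfer RNA accumulates or eIF2 is phosphorylated, cells make more of the transcription factor ATF4, which is known to raise genes of amino acid uptake and synthesis and a number of cytoplasmic synthetases. The mitochondrial enzymes serve translation of the few proteins encoded by mitochondrial DNA, which are subunits of the respiratory chain. ATF4 and its partners of the C/EBP family are known to bind a composite DNA sequence, the C/EBP-ATF response element (CARE).

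The start regions of the genes were compared first. RefSeq promoter windows of build GRCh38.p14, which run from 250 bases before the annotated start to 50 bases from the start on, were found for 30 of the 35 genes. There was none for VARS1, YARS1, LARS1, AARS2 or VARS2. Each window is set around 1 annotated start, which for TARS1, CARS2, EARS2 and FARS2 lay inside the gene's annotated span. The core letters of the CARE, TGATGNAA on either strand (N being any base), were in 6 of 16 cytoplasmic windows (37.5%) and in 1 of 14 mitochondrial windows (7.14%), against 3.67% of all 27305 promoters and 1.67% of the 8884 promoters of genes tested. The cytoplasmic genes with the letters were AARS1, CARS1, IARS1, MARS1, NARS1 and TARS1, and the mitochondrial gene was YARS2. Printed here are the measured ones, from up to 50 bases before the letters to at most 30 bases from the start on, 5′ to 3′ on the gene's strand with the CARE letters in capitals. The stretches are chr16:70289646-70289743 (AARS1, minus strand), chr11:3057394-3057475 (CARS1, minus), chr9:92293668-92293760 (IARS1, minus), chr18:57621807-57621872 (NARS1, minus), chr5:33440917-33440994 (TARS1, plus) and chr12:32756047-32756144 (YARS2, minus).
AARS1: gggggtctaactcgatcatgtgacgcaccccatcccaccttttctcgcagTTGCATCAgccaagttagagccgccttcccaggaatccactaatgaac
CARS1: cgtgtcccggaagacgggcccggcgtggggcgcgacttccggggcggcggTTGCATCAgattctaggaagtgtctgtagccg
IARS1: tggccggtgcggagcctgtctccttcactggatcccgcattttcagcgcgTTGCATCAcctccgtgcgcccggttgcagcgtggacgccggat
NARS1: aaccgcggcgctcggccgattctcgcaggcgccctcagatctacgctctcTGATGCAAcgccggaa
TARS1: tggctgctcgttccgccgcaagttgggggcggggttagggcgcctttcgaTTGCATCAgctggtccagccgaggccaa
YARS2: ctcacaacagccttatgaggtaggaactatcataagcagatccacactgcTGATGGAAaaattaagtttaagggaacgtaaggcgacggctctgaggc
In CARS1, IARS1 and TARS1 the letters lay beside the start that the window uses. Their first base was 2 bases before it in CARS1, 13 before it in IARS1 and 2 after it in TARS1. In NARS1 they lay 14 bases after the start, and in AARS1 and YARS2 they lay 187 and 197 bases before it. The letters are a description of the sequence and do not show that a factor binds there. None of these CARE matches shared bases with a match to the other motifs searched.

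Other motifs were searched in the same windows. The ETS core CCGGAAG was in 8 of 16 cytoplasmic windows and in 6 of 14 mitochondrial windows (42.9%), against 10.7% of all promoters and 20.4% of those of genes tested. NRF1, a factor known for its role at genes of mitochondrial proteins, has the core GCGCATGC, which was in 0 of 16 cytoplasmic and 2 of 14 mitochondrial windows (14.3%), against 3.27% of all promoters and 5.76% of those of genes tested. The E-box CACGTG was in 1 cytoplasmic window (6.25%) and 3 mitochondrial windows (21.4%), against 7.43% and 10.8%. All were searched on both strands.

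One pair of partners shares its start region. HARS1 and HARS2, the cytoplasmic and the mitochondrial histidyl-tRNA synthetase, run in opposite directions from starts 85 bases apart on chromosome 5. The stretch between the starts, chr5:140691371-140691454 on the plus strand (the direction of HARS2), is shown because both genes begin at its ends. The capitals mark the ETS core on either strand.
HARS1-HARS2: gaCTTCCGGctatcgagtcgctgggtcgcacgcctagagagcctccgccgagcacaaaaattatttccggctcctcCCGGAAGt
Both matches to the ETS core lay within this stretch, next to the start of each gene, and neither window held the CARE letters.

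The arrays were alike in their overall values. Array medians lay between 2.86 and 2.92 on the log2 scale, and 38.2% to 39.1% of probe sets reached 4. For ACTB the 3-prime probe set minus the 5-prime one, a sign of RNA quality, ranged over 0.73 to 1.10 in CsA arrays and over 0.67 to 1.21 in control arrays. The 1.21, the highest array median and the highest share of probe sets reaching 4 were all of control replicate 1 at 48 h. For GAPDH the same difference ranged over −0.16 to −0.098 in CsA arrays and over −0.17 to 0.035 in control arrays. There control replicate 1 at 48 h had the lowest value and control replicate 2 at 48 h the highest. Of 10 measured proximal tubule markers only 2 reached a mean of 4 in any group, SLC3A1 and PAX8, while brush border genes such as LRP2, CUBN and GGT1 stayed below 4. All 5 general epithelial markers and 4 of 6 fibroblast markers (COL1A1, COL3A1, DCN and LUM) reached it, and none of the endothelial or leukocyte markers did. Of 3 measured podocyte markers 2 reached it, SYNPO and PODXL, and of 4 measured markers of distal nephron and collecting duct 0 did. Each of the 18 arrays was closest, outside its own group, to an array of the same replicate number. In replicate 3 the cytoplasmic synthetases were a median 0.16 higher on the log2 scale than in the other replicates, and the mitochondrial ones 0.016 higher.

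The cytoplasmic synthetases stood highest at 48 h with and without CsA, and the mitochondrial set stayed near its mean. For each array the median over a set was taken of each gene's log2 value minus that gene's mean over all 18 arrays. For the cytoplasmic set this median was −0.17, −0.25 and −0.20 in CsA arrays at 12 h (replicates 1, 2 and 3), against −0.30, −0.37 and −0.16 in control arrays. At 24 h it was −0.29, 0.11 and −0.14 with CsA, against −0.36, −0.48 and −0.23 in control. At 48 h it was 0.34, 0.48 and 0.60 with CsA, against −0.10, 0.44 and 0.47 in control. The 48 h arrays were therefore above all earlier arrays except for control replicate 1 at 48 h, which lay below CsA replicate 2 at 24 h. For the mitochondrial set all 18 medians lay between −0.11 and 0.13, and for all genes tested between −0.032 and 0.025.

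**Figure D1:**
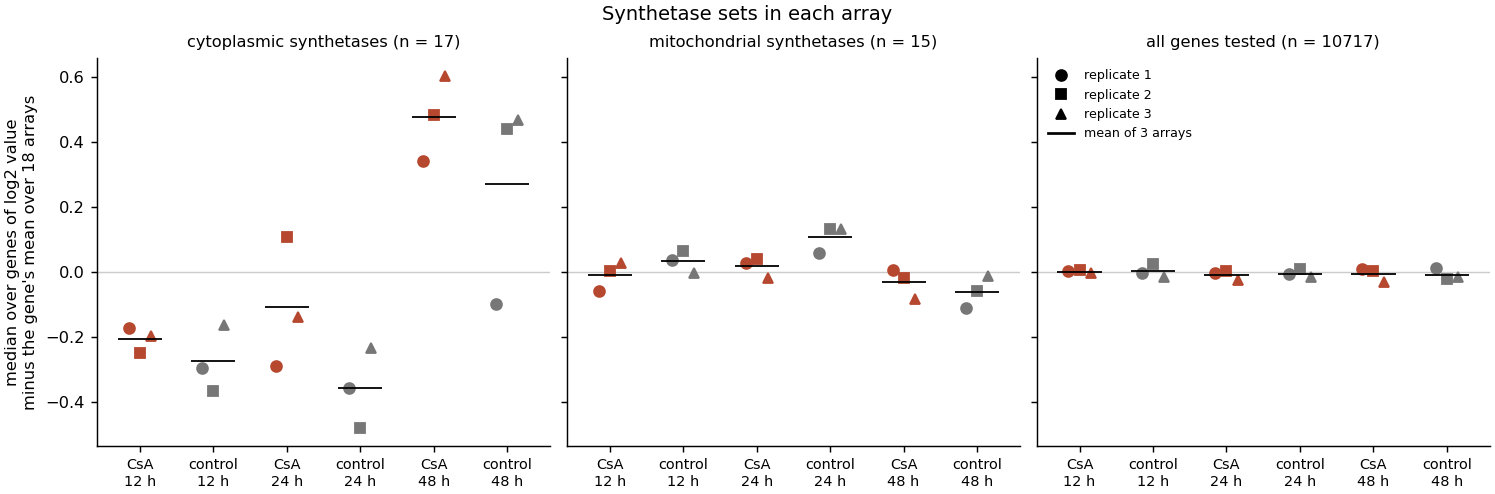
Median over each gene set of the log2 value minus the gene's mean over 18 arrays (vertical axis, log2 units), for each array (points, shaped by replicate) and the mean of 3 arrays (bars), with CsA left of control at each time. The 17 cytoplasmic genes lie highest at 48 h, where control replicate 1 stands at −0.10, while the 15 mitochondrial genes stay between −0.11 and 0.13.

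The first comparison asked how CsA moved the 2 sets at each time. At 12 h, 10 of 17 cytoplasmic genes were higher with CsA, with a median difference of 0.098 on the log2 scale, and 3 of 15 mitochondrial genes were, with a median of −0.067. At 24 h, 12 of 17 and 4 of 15 were higher, with medians of 0.29 and −0.037. At 48 h, 16 of 17 and 7 of 15 were higher, with medians of 0.28 and −0.019. Over all genes tested the medians lay between −0.010 and 0.00091, and 46.7%, 48.0% and 50.2% were higher at 12, 24 and 48 h.

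No synthetase passed the test at any single time with limma at a Benjamini-Hochberg adjusted p under 0.05. Over all genes the test called 0% at 12 h, 0% at 24 h and, at 48 h, 0.215% higher and 0.224% lower. With unadjusted p under 0.05, 0, 6 and 3 cytoplasmic genes were higher at 12, 24 and 48 h and none was lower, against 0.467%, 1.93% and 7.74% of all genes higher. Of the mitochondrial genes 1, 1 and 2 were lower at this level, against 0.448%, 1.86% and 8.3% of all genes lower, and 1 (RARS2) was higher at 48 h. With the replicate number as a block, 1 cytoplasmic gene rose at 48 h, LARS1 (adjusted p = 0.0463 in limma), against 4.8% of all genes called higher and 5.96% lower in that fit. Among the 10 proximal tubule markers only PAX8 and SLC3A1 reached 4, with means of 10.4 and 8.34, so their sum mostly followed PAX8. The summed level of the 10, on the log2 scale, was 10.2 to 10.6 in CsA arrays and 10.6 to 11.0 in control arrays at 48 h. Its part in the 48 h values was not tested. These are values of whole cultures, in which fewer cells with a transcript and less of it per cell cannot be told apart.

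The set medians leaned on single arrays. In pairs of the same replicate number the cytoplasmic median was 0.19, 0.10 and −0.054 at 12 h, 0.19, 0.58 and 0.055 at 24 h and 0.38, 0.22 and 0.30 at 48 h. Without CsA replicate 1 the 12 h median was 0.047, and without both arrays of replicate 3 it was 0.16. Without CsA replicate 2 the 24 h median was 0.13, and without control replicate 1 the 48 h median was 0.11. That 48 h control array had the highest ACTB difference but the lowest GAPDH difference of all arrays. The part of RNA quality in this was not tested. Without both arrays of replicate 1 the 48 h median was 0.18.

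Averaged over the 3 times, which is the most precise estimate per gene, 15 of 17 cytoplasmic genes were higher with CsA (median 0.28) and 4 of 15 mitochondrial genes were (median −0.045). Probe sets that may cross-hybridise were also replaced where the gene had another that reached 4. The cytoplasmic median was then 0.10, and at 48 h alone 0.20. Among the cytoplasmic genes this replaced only the probe sets of YARS1 and FARSA, which then averaged −0.020 and −0.18. The new probe set of YARS1 is dim, with a mean of 4.21, and other genes such as GARS1 and IARS1 kept theirs. The fit without a block called no synthetase on average, against 0.0746% of all genes higher and 0.00933% lower. At an unadjusted p under 0.05, 9 cytoplasmic genes were higher and 2 mitochondrial genes lower, against 5.89% and 6.35% of all genes. With the replicate block, which the data and not the labels bear out, 5 cytoplasmic genes rose and 1 mitochondrial gene fell, against 2.11% and 2.5% of all genes. The 5 were CARS1, GARS1, LARS1, WARS1 and YARS1, and the 1 was AARS2.

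**Figure D2:**
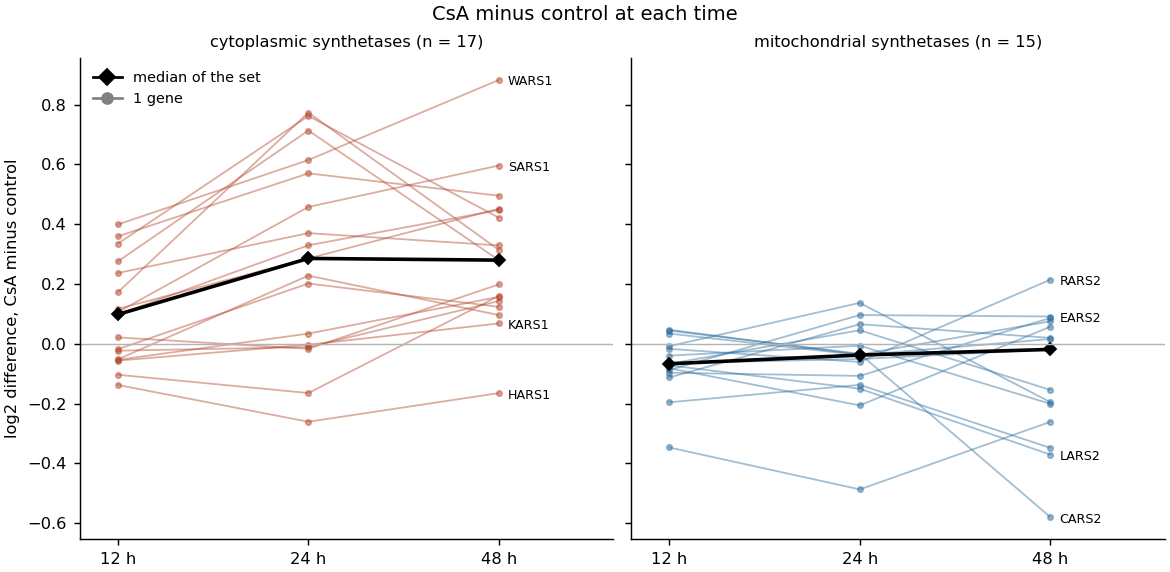
CsA minus control (vertical axis, log2 difference) at 12, 24 and 48 h for each of 17 cytoplasmic genes (left) and 15 mitochondrial genes (right), with the median of the set in black. The cytoplasmic median is 0.098, 0.29 and 0.28 at the 3 times and the mitochondrial median stays between −0.067 and −0.019.

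WARS1, the cytoplasmic tryptophanyl-tRNA synthetase, had the largest average difference of the 32 genes. At 12 h its log2 values were 10.40, 10.17 and 9.59 with CsA (replicates 1, 2 and 3), against 9.76, 9.75 and 9.45 in control. At 24 h they were 9.99, 10.39 and 9.70 with CsA, against 9.49, 9.32 and 9.43 in control. At 48 h they were 12.24, 12.73 and 12.73 with CsA, against 10.85, 12.27 and 11.93 in control. The groups overlapped at 12 and 48 h and not at 24 h, and control replicate 1 was low at 48 h. The average difference was 0.63 ± 0.18 (SE), a 1.55-fold higher value with CsA, with a limma adjusted p of 0.163 unblocked and 0.0498 blocked by replicate. CsA was higher in 9 of 9 replicate pairs. These pairs are 3 replicate numbers at 3 times and not 9 independent comparisons. The share of all genes with a like count was not taken, here or for the genes below.

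AARS1, which charges alanine, differed most at 24 h. At 12 h it had 9.99, 9.96 and 9.06 with CsA, against 9.58, 9.31 and 9.12 in control. At 24 h it had 10.07, 10.87 and 9.69 with CsA, against 9.55, 9.33 and 9.48 in control. At 48 h it had 11.52, 11.87 and 12.08 with CsA, against 10.78, 11.73 and 11.69 in control. Only the 24 h groups were apart, by 0.76 ± 0.33, with CsA replicate 2 the highest. Its average difference of 0.51 ± 0.19 did not pass the test (limma adjusted p = 0.284 unblocked and 0.116 blocked by replicate).

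CARS1, the cysteinyl-tRNA synthetase, had the largest difference of any synthetase at 24 h. Its values at 12 h were 9.45, 9.43 and 9.55 with CsA, against 9.26, 9.17 and 9.48 in control. Its values at 24 h were 9.69, 10.59 and 9.86 with CsA, against 9.18, 9.15 and 9.49 in control. Its values at 48 h were 10.93, 11.19 and 11.21 with CsA, against 10.55, 10.92 and 10.92 in control. The groups were apart at 24 h and, narrowly, at 48 h, with CsA replicate 2 the highest at 24 h. The average difference was 0.42 ± 0.11, with a limma adjusted p of 0.148 unblocked and 0.0361 blocked by replicate, and CsA was higher in 9 of 9 pairs.

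YARS1, the tyrosyl-tRNA synthetase, followed a like course. Its log2 values at 12 h were 10.25, 10.19 and 9.99 with CsA, against 9.67, 9.86 and 10.07 in control. The 24 h values were 10.11, 11.00 and 10.11 with CsA, against 9.53, 9.70 and 9.86 in control, and did not overlap. The 48 h values were 11.18, 11.52 and 11.53 with CsA, against 10.81, 11.36 and 11.22 in control, and overlapped, as did those at 12 h. The average difference was 0.42 ± 0.13 (limma adjusted p = 0.189 unblocked and 0.0430 blocked by replicate). A second, dim probe set of YARS1, with a mean of 4.21, gave an average difference of −0.020.

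GARS1 charges glycine in both compartments from a single gene. At 12 h its values were 10.73, 10.76 and 10.73 with CsA, against 10.23, 10.37 and 10.53 in control, and did not overlap. At 24 h its values were 10.64, 11.54 and 10.85 with CsA, against 10.35, 10.16 and 10.81 in control. At 48 h its values were 12.09, 12.36 and 12.73 with CsA, against 11.36, 12.02 and 12.30 in control. CsA was the higher of the pair in all 9 pairs, by 0.043 to 1.38. The average difference was 0.47 ± 0.15, with a limma adjusted p of 0.211 unblocked and 0.0479 blocked by replicate.

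SARS1, the seryl-tRNA synthetase, was among the 3 largest cytoplasmic differences at 48 h. It had 11.14, 10.97 and 10.42 at 12 h with CsA, against 10.90, 10.84 and 10.47 in control. It had 11.08, 11.93 and 10.70 at 24 h with CsA, against 10.85, 10.85 and 10.64 in control. It had 12.61, 12.97 and 12.77 at 48 h with CsA, against 11.69, 12.64 and 12.23 in control. The groups overlapped at each time, with control replicate 1 low at 48 h. Its average difference of 0.39 ± 0.17 did not pass the test (limma adjusted p = 0.371 unblocked and 0.111 blocked by replicate).

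Among the measured synthetases of the multisynthetase complex, LARS1, the leucyl-tRNA synthetase, was the one that passed in a comparison of CsA with control, and only with the replicate block. At 12 h it gave 10.90, 10.79 and 10.73 with CsA, against 10.68, 10.69 and 10.76 in control. At 24 h it gave 10.93, 11.02 and 10.95 with CsA, against 10.57, 10.45 and 10.89 in control, and the groups were apart. At 48 h it gave 11.27, 11.33 and 11.74 with CsA, against 10.78, 10.89 and 11.32 in control. Control replicate 3 overlapped the lowest CsA array at 48 h, where the difference was 0.45 ± 0.16 (limma adjusted p = 0.179 unblocked and 0.0463 blocked by replicate). The average was 0.29 ± 0.09, with a limma adjusted p of 0.201 unblocked and 0.0475 blocked by replicate. Its 3 other probe sets that reached 4 gave averages of 0.17 to 0.41. EPRS1, which charges glutamate and proline, and IARS1, which charges isoleucine, averaged 0.31 ± 0.10 and 0.28 ± 0.11, and passed the test in neither fit. KARS1 (lysine, both compartments) and RARS1 (arginine) averaged 0.003 and 0.036.

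The other cytoplasmic genes had small differences. NARS1 (asparagine), TARS1 (threonine), FARSB and FARSA (the subunits of the phenylalanyl enzyme) and VARS1 (valine) averaged between −0.036 and 0.10, with none past the test. At 24 h the CsA and control arrays did not overlap for 7 cytoplasmic genes with CsA higher (AARS1, CARS1, EPRS1, LARS1, NARS1, WARS1 and YARS1), against 4.57% of all genes. At 12 h this held for EPRS1 and GARS1, against 3.26% of all genes, and at 48 h for CARS1, against 8.25%.

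Of the mitochondrial genes, AARS2, the alanyl-tRNA synthetase of mitochondria, differed most. At 12 h its values were 6.66, 6.68 and 6.72 with CsA, against 7.23, 6.98 and 6.89 in control. At 24 h its values were 6.70, 6.53 and 6.78 with CsA, against 7.16, 7.18 and 7.13 in control. At 48 h its values were 5.99, 6.25 and 6.54 with CsA, against 6.54, 6.54 and 6.48 in control. All CsA arrays lay below all control arrays at 12 and 24 h, and CsA replicate 3 reached the controls at 48 h. The average difference was −0.36 ± 0.07, a 1.29-fold lower value with CsA, with a limma adjusted p of 0.0700 unblocked and 0.0221 blocked by replicate. A second probe set of AARS2, with a mean of 6.02, gave 0.056, −0.078 and −0.027 at 12, 24 and 48 h and an average of −0.017.

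VARS2, the mitochondrial valyl-tRNA synthetase, was lower with CsA in 9 of 9 pairs, a count not taken over all genes. It had 8.90, 8.79 and 9.07 at 12 h with CsA, against 9.11, 8.99 and 9.26 in control. At 24 h it had 9.12, 8.98 and 9.21 with CsA, against 9.26, 9.24 and 9.23 in control. At 48 h it had 8.62, 8.63 and 8.38 with CsA, against 8.78, 9.11 and 8.79 in control. The groups were apart at 24 and 48 h, and the average of −0.23 ± 0.07 did not pass the test (limma adjusted p = 0.201 unblocked and 0.0817 blocked by replicate).

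CARS2, the mitochondrial cysteinyl enzyme, differed at 48 h more than at the earlier times. Its 12 h values were 6.32, 6.46 and 6.33 with CsA, against 6.24, 6.35 and 6.39 in control. Its 24 h values were 6.23, 6.20 and 6.80 with CsA, against 6.34, 6.36 and 6.63 in control. Its 48 h values were 5.60, 5.13 and 5.51 with CsA, against 6.19, 5.45 and 6.34 in control. Control replicate 2 overlapped the CsA arrays at 48 h, and the difference there was −0.58 ± 0.22 (limma adjusted p = 0.207 unblocked and 0.0550 blocked by replicate). The change of its CsA difference over the times did not pass the F test (adjusted p = 1 in limma).

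LARS2, the mitochondrial leucyl enzyme, was lower with CsA in 8 of 9 pairs. Its 12 h values were 8.54, 8.83 and 8.36 with CsA, against 8.63, 8.83 and 8.49 in control. Its 24 h values were 8.50, 8.16 and 8.06 with CsA, against 8.42, 8.47 and 8.28 in control. Its 48 h values were 7.67, 7.34 and 7.01 with CsA, against 7.99, 7.54 and 7.60 in control. The groups overlapped at all 3 times, and the average was −0.20 ± 0.11 (limma adjusted p = 0.503). Both groups were lower at 48 h than at 24 h.

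PARS2, the mitochondrial prolyl-tRNA synthetase, had the second largest mitochondrial difference at 24 h, −0.21 ± 0.17. It had 6.76, 6.94 and 7.10 at 12 h with CsA, against 7.04, 7.00 and 7.01 in control. At 24 h it had 6.60, 7.04 and 7.04 with CsA, against 7.03, 7.21 and 7.05 in control. At 48 h it had 7.06, 7.61 and 6.97 with CsA, against 7.03, 7.29 and 7.14 in control. The groups overlapped throughout, and at 24 h CsA replicate 1 alone stood well below the rest. The other mitochondrial genes (EARS2, FARS2, HARS2, IARS2, MARS2, NARS2, RARS2, SARS2, WARS2 and YARS2) averaged between −0.082 and 0.046. MARS2, with a mean of 4.76, was the dimmest member and the least precise. CsA and control did not overlap, with CsA lower, for AARS2 at 12 h (3.1% of all genes), for AARS2 and VARS2 at 24 h (5.12%) and for VARS2 and WARS2 at 48 h (6.77%), and RARS2 was apart and higher at 48 h (8.25%).

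The CsA difference itself was not shown to change over the times. A moderated F test in limma over the differences at 12, 24 and 48 h called 0 of 17 cytoplasmic and 0 of 15 mitochondrial genes, against 0.0373% of all genes, and none of the 32 had an unadjusted p under 0.05 in it. Between single times the median change of the CsA difference was 0.21 for cytoplasmic and −0.011 for mitochondrial genes at 24 h against 12 h, and 0.096 and −0.0049 at 48 h against 24 h. Between 48 h and 12 h these medians were 0.15 and 0.028. At an unadjusted p under 0.05, 1 synthetase, CARS1, had a larger difference at 24 h than at 12 h (by 0.60 ± 0.28), against 0.504% of all genes larger and 0.308% smaller. Likewise 1, RARS2, had a larger one at 48 h than at 24 h (by 0.28 ± 0.11), against 3.07% larger and 2.61% smaller. None did between 48 h and 12 h, against 2.34% larger and 2.38% smaller. No synthetase passed after adjustment in limma in these comparisons, against at most 0.0373% of all genes in each direction, or 0.028% at 48 h against 12 h with the replicate block.

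**Figure D3:**
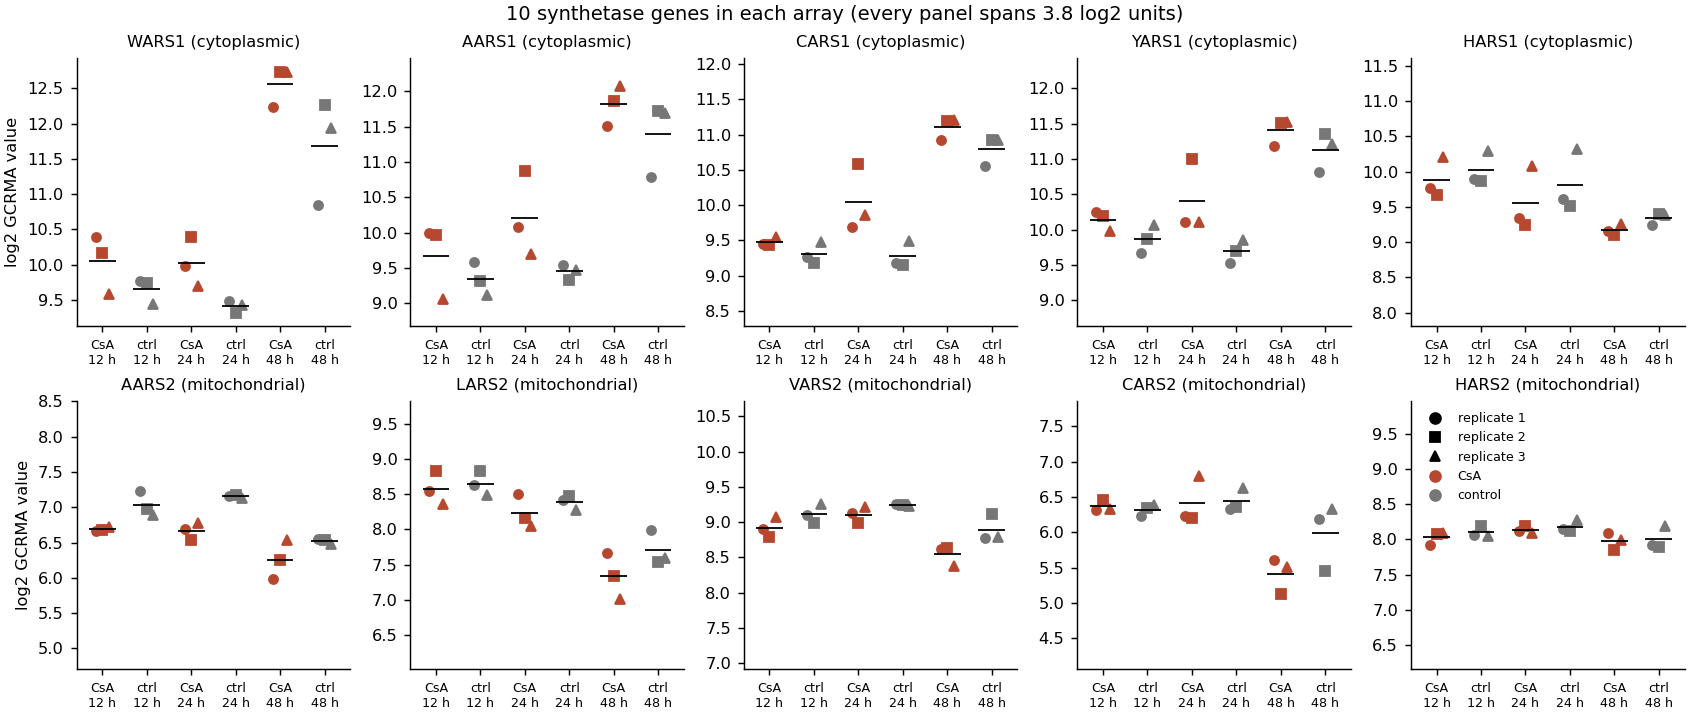
Log2 value (vertical axis) of 5 cytoplasmic genes (top) and 5 mitochondrial genes (bottom) in each array, CsA left of control at each time, with points shaped by replicate and bars at the mean of 3 arrays; the panels share a span of 3.8 log2 units. WARS1, AARS1, CARS1 and YARS1 stand higher in all 48 h control arrays than in the 24 h control arrays, and AARS2 and LARS2 stand lower.

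Time in culture was compared next, in control arrays at 48 h against those at 24 h. Of 17 cytoplasmic genes 10 rose at 48 h and none fell (limma, adjusted p under 0.05), against 7.32% of all genes called higher and 7.16% lower. The 10 were AARS1, CARS1, EPRS1, GARS1, IARS1, NARS1, SARS1, TARS1, WARS1 and YARS1. Of 15 mitochondrial genes none rose and 2 fell, AARS2 and LARS2. The median difference was 0.59 for the cytoplasmic set, −0.11 for the mitochondrial set and −0.0034 for all genes tested.

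WARS1 had the largest rise, 2.27 ± 0.31, or 4.83-fold (limma adjusted p = 0.000678). AARS1 rose by 1.95 ± 0.33, or 3.87-fold (adjusted p = 0.00216), and CARS1 by 1.52 ± 0.20, or 2.87-fold (adjusted p = 0.000516). GARS1, YARS1 and SARS1 rose by 1.46, 1.43 and 1.41. For each of these 6 the 3 control arrays at 48 h lay above the 3 at 24 h, with replicate 1 the lowest at 48 h in all 6. IARS1 rose by 0.91 ± 0.19, EPRS1 by 0.65 ± 0.17, TARS1 by 0.59 ± 0.18 and NARS1 by 0.49 ± 0.09. LARS1 differed by 0.36 ± 0.16 and passed only with the replicate block (adjusted p = 0.0499, against 0.142 without it).

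The remaining cytoplasmic genes did not pass as higher. FARSA, FARSB, KARS1 and VARS1 differed by 0.34, 0.015, −0.13 and −0.19 and passed in neither fit. HARS1 and RARS1 differed by −0.48 ± 0.24 and −0.22 ± 0.11, and fell with the replicate block (adjusted p = 0.0241 and 0.0462, against 0.203 and 0.204 without it). In that fit 16.6% of all genes were called higher and 16% lower.

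In the mitochondrial set AARS2 fell by 0.64 ± 0.13 (limma adjusted p = 0.00653) and LARS2 by 0.68 ± 0.19 (adjusted p = 0.0273). The second probe set of AARS2, with a mean of 6.02, differed by only −0.22, and that of LARS2 by −0.48. VARS2 differed by −0.35 ± 0.12 and fell only with the replicate block (adjusted p = 0.0459, against 0.0711 without it). The other 12 differed by −0.45 (CARS2) to 0.48 (MARS2) with none past the test. Arrays at 48 h did not overlap those at 24 h for 10 cytoplasmic genes that were higher, 2 cytoplasmic genes that were lower and 4 mitochondrial genes that were lower, against 14.9% of all genes higher and 16.1% lower.

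The counts moved with the replicate left out. Without the arrays of replicate 2 the test called 3 cytoplasmic genes higher, CARS1, WARS1 and YARS1, and without those of replicate 1 it called 6, while no mitochondrial gene was called in either fit. Leaving out any 1 of the 3 control arrays at 24 h, or control replicate 3 at 48 h, left 1 mitochondrial gene called lower, and without the arrays of replicate 3 1 was called higher. No synthetase was called between 24 h and 12 h in control, with or without the block, against 0% of all genes. Between 48 h and 12 h in control, 9 cytoplasmic genes rose and 2 mitochondrial genes fell, against 8.48% and 9.37% of all genes. Without the arrays of replicate 2 these counts were 2 and 0, and without those of replicate 1, or control replicate 1 at 12 h alone, 1 mitochondrial gene fell. With the replicate block TARS1 also rose, by 0.49, and HARS1 and RARS1 fell in that comparison, by 0.68 and 0.32, and 1 mitochondrial gene, WARS2, rose by 0.34, against 18% of all genes higher and 18.7% lower.

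The CsA arrays were compared over time in the same way, a comparison added after the control arrays had been seen. With CsA at 48 h against 24 h, 10 cytoplasmic genes rose, none fell, and 4 mitochondrial genes fell, against 12.9% and 12.3% of all genes. WARS1 rose by 2.54, AARS1 by 1.61 and SARS1 by 1.55, and of the mitochondrial genes CARS2 fell by 1.00, LARS2 by 0.90, VARS2 by 0.56 and AARS2 by 0.41. The second probe sets of LARS2 and AARS2 differed by −0.88 and −0.17. With the replicate block FARSA, by 0.66, and TARS1, by 0.45, also rose and YARS2 fell by 0.30 (limma adjusted p = 0.0151, 0.0221 and 0.0407). Without the arrays of replicate 1 the test called 6 cytoplasmic genes higher and 2 mitochondrial genes lower, and without those of replicate 2 it called 7 and 2. With CsA at 48 h against 12 h, 11 cytoplasmic genes rose, LARS1 and the 10 named above for control at 48 h against 24 h, and HARS1 fell by 0.71, while AARS2, CARS2, LARS2 and VARS2 fell, against 16.3% of all genes higher and 16.2% lower. The fall of HARS1 was lost without any 1 CsA array at 48 h, without CsA replicate 1 or 3 at 12 h, and without the arrays of replicate 1 or 2. The mitochondrial count was 2 without CsA replicate 3 at 12 h or without the arrays of replicate 2, and 1 without those of replicate 1. The summed level of the 6 fibroblast markers, on the log2 scale, was 9.16 to 11.3 in CsA and 9.87 to 12.0 in control arrays at 48 h, against 11.1 to 11.6 and 11.3 to 11.4 at 24 h, and its part in these differences was not tested.

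**Figure D4:**
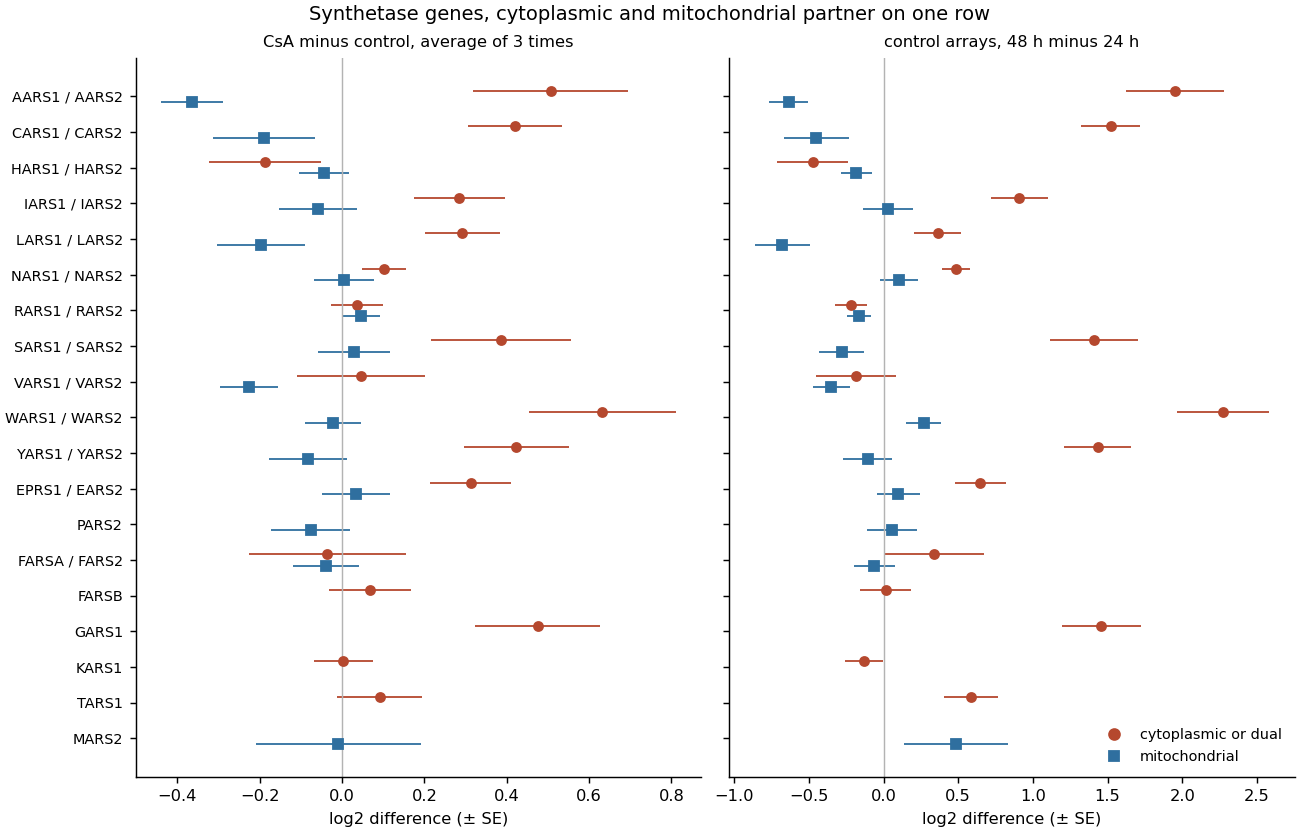
Log2 difference with its standard error (horizontal axis) for each gene, CsA minus control averaged over 3 times (left) and control arrays at 48 h minus 24 h (right), with cytoplasmic genes as circles and mitochondrial genes as squares on the row of the same amino acid. The cytoplasmic point lies right of its mitochondrial partner for 9 of the 11 amino acids in the top rows, in both panels.

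Partners of the same amino acid were then set side by side. For 11 amino acids a cytoplasmic and a mitochondrial gene with matching symbols, ending in 1 and 2, were measured. Glutamate and proline were not among them, since EPRS1 charges both. EPRS1 averaged 0.31, against 0.033 for EARS2 and −0.077 for PARS2. The average CsA difference was larger in the cytoplasmic gene for 9 of 11, with a median of cytoplasmic minus mitochondrial difference of 0.36, and the count was 8, 10 and 9 of 11 at 12, 24 and 48 h. The widest gap was for alanine, where AARS1 averaged 0.51 and AARS2 −0.36 (−0.017 by its second probe set). It was followed by tryptophan, with 0.63 for WARS1 and −0.022 for WARS2, and cysteine, with 0.42 for CARS1 and −0.19 for CARS2. Histidine and arginine were the exceptions, where HARS1 averaged −0.19 and HARS2 −0.045, and RARS1 0.036 and RARS2 0.046.

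Between 48 h and 24 h in control the cytoplasmic gene again differed more upward for 9 of 11, with a median gap of 1.04, and the exceptions were histidine and arginine. The gap was 2.59 for alanine, with the brighter AARS2 probe set, 2.00 for tryptophan and 1.97 for cysteine. The 2 comparisons share the control arrays at 24 and 48 h, so their values are not independent.

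The histidine pair, whose shared start region is printed above, did not pass the CsA test. HARS1 had 9.77, 9.67 and 10.20 with CsA at 12 h, against 9.90, 9.87 and 10.29 in control. At 24 h HARS1 had 9.34, 9.25 and 10.08 with CsA, against 9.61, 9.51 and 10.32 in control. At 48 h HARS1 had 9.16, 9.10 and 9.26 with CsA, against 9.24, 9.39 and 9.38 in control. The groups overlapped at all times and replicate 3 was high at 12 and 24 h in both. CsA was lower in 9 of 9 pairs, by 0.077 to 0.29, a count not taken over all genes. The average of −0.19 ± 0.14 did not pass the test (limma adjusted p = 0.664 unblocked and 0.205 blocked by replicate).

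HARS2, at the other end of that stretch, varied less. It had 7.93, 8.08 and 8.10 with CsA at 12 h, against 8.07, 8.19 and 8.04 in control. At 24 h HARS2 had 8.11, 8.18 and 8.09 with CsA, against 8.15, 8.12 and 8.27 in control. At 48 h HARS2 had 8.09, 7.86 and 7.99 with CsA, against 7.92, 7.89 and 8.19 in control. CsA and control overlapped at all 3 times, and neither the average of −0.045 ± 0.06 nor the 48 h minus 24 h difference of −0.18 ± 0.10 in control passed the test in either fit (limma).

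The promoter letters were set beside these results. Of the 10 cytoplasmic genes that rose at 48 h in control, 9 had a window. The CARE letters were in 5 of the 9 (55.6%), namely AARS1, CARS1, IARS1, NARS1 and TARS1, against 1.67% of the promoters of genes tested. The ETS core was also in 5 of these 9 windows (55.6%), against 20.4%, the E-box in 1 (11.1%) and the NRF1 core in 0. EPRS1, GARS1, SARS1 and WARS1 rose without the CARE letters in their windows, which says only that these letters are not in that stretch. Nor were they in the windows of FARSA, FARSB, HARS1, KARS1 and RARS1, which were not called higher. Of these, HARS1, KARS1 and RARS1 had the ETS core. YARS2, the mitochondrial gene with the letters, differed by −0.11 ± 0.16 at 48 h against 24 h in control and did not pass the test. The letters were in 5 of 22 windows of ATF4 and its listed targets (22.7%).

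Genes of the surrounding pathways were set beside the synthetases. Their lists were drawn up from textbook knowledge, but with earlier results of these data known. Of 28 tested genes in a list of ATF4 and its textbook targets without synthetases, 28 were higher with CsA at 24 h (median 0.63). At 12 h 20 were higher (median 0.19), at 48 h 24 (median 0.30) and on average 26 (median 0.41). Over all genes the medians were −0.010, −0.0083 and 0.00091 at 12, 24 and 48 h and −0.0058 on average. The CsA difference was smaller at 48 h than at 24 h for 24 of the 28, with no call in either fit. The median change was −0.46, against −0.0039 over all genes. None was called on average without the block, against 0.0746% of all genes higher. With the block 5 rose, SLC7A11, ALDH1L2, SLC3A2, ATF4 and CEBPG, against 2.11% of all genes higher. Of these, SLC3A2, ATF4 and CEBPG were named after their values were seen. At 48 h against 24 h in control 21 of the 28 rose and none fell, with a median of 1.70, against 7.32% of all genes higher and 7.16% lower. SLC7A11, the cystine transporter, and ALDH1L2, a mitochondrial folate enzyme, had the largest average CsA differences, 1.56 ± 0.33 and 1.52 ± 0.30 (limma adjusted p = 0.0721 and 0.0698, and 0.00926 and 0.0135 with the replicate block).

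Genes that act on eIF2 were taken next. Of 10 tested integrated stress response kinases, phosphatases and their partners none was called on average, PPP1R15A (a phosphatase subunit) and EIF2AK3 (the kinase PERK) being highest at 0.45 ± 0.29 and 0.32 ± 0.10. In control at 48 h against 24 h, 2 rose, PPP1R15A by 1.65 and EIF2AK3 by 0.88, and GCN1, named after its values were seen, fell by 0.37, against 7.32% of all genes higher and 7.16% lower. With the replicate block PPP1R15B also rose, by 0.67, and EIF2S1 fell by 0.50, both named after their values were seen, against 16.6% and 16% of all genes. Of synthetase-like, editing and tRNA-transport genes 6 of 9 were tested and none was called on average, with XPOT, the exporter of transfer RNA from the nucleus, at 0.29 ± 0.13 and PSTK at −0.15 ± 0.16. XPOT and DTD1, which removes D-amino acids from transfer RNA, rose by 1.45 and 0.52 at 48 h against 24 h in control. In that comparison 7.32% of all genes were called higher, and DTD1 was named after its values were seen. SEPSECS, named in the same way, rose by 0.97 only with the replicate block, against 16.6% of all genes higher.

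Other parts of translation followed. AIMP1, the 1 tested scaffold protein of the multisynthetase complex of 3 listed, averaged 0.13 ± 0.07. At 48 h it was higher with CsA than in control only with the block, against 4.8% of all genes higher in that fit. None of the 4 genes of the mitochondrial amidotransferase and formyltransferase, which modify charged transfer RNAs, was called on average, where MTFMT averaged 0.15 ± 0.18 and GATC −0.15 ± 0.17. With the replicate block MTFMT and GATB fell at 48 h against 24 h in control, where 16% of all genes were called lower. GATB was named after its values were seen. None of 9 tested mitochondrial translation factors of 10 listed was called on average, where MTRF1L and MTRF1 each averaged −0.12, and MTIF2 and MTRFR, named after their values were seen, rose by 0.39 and 0.43 at 48 h against 24 h in control, where 7.32% of all genes were called higher. TSFM and TUFM, also named after their values were seen, fell there with the replicate block by 0.37 and 0.41 (limma adjusted p = 0.0237 and 0.00391), against 16% of all genes lower. Of 6 listed cytosolic elongation factors 4 were tested and none was called on average, where EEF1A2 and EEF2 averaged 0.17 and 0.12. EEF2 differed by 0.44 at 48 h against 24 h in control and rose only with the replicate block (limma adjusted p = 0.00354, against 0.112 without it). In that fit 16.6% of all genes were called higher. With CsA over the same times EEF2 rose by 0.55 (limma adjusted p = 0.0370 without the block), against 12.9% of all genes higher.

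Most cytoplasmic genes followed their common mean. Across 18 arrays, which share time and replicate effects, Pearson's correlation of a gene with the mean profile of the 17 cytoplasmic genes, itself included, ranged over 0.88 (LARS1) to 0.99 (IARS1) for the 11 genes nearest to it. The 11 were picked by this correlation, so their range is a description. The correlation was 0.55 for FARSA, 0.26 for FARSB, 0.17 for VARS1, −0.27 for KARS1, −0.41 for RARS1 and −0.61 for HARS1. Of the mitochondrial genes LARS2, AARS2, CARS2 and VARS2 had −0.93, −0.81, −0.79 and −0.75. Among the other genes tested, those most like the cytoplasmic mean were EIF4EBP1 (0.987), SHMT2 (0.984), ITPKA (0.977), NIBAN1 (0.976) and ZFAND2A (0.972), given as a description.

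Most second probe sets gave the same sign. For 15 of the 32 genes 21 further probe sets reached 4, of which 17 had the sign of the one used in the average CsA difference and 19 in control at 48 h against 24 h. The opposite ones in the average were of EARS2, RARS2, WARS2 and YARS1.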

How the data were processed

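Total RNA of 18 HK-2 cultures was hybridised to Affymetrix arrays, 3 biological replicates in each of 6 groups, per the labels. The deposited values are log2 expression values made by the authors with GCRMA, per the submitters' processing notes. GCRMA corrects background with probe sequence, normalises quantiles between arrays and summarises probes. The GCRMA version was not named there, and the log2 base was read from the range of the values, since no label names it. Scanner files were not analysed here.

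Of 54675 probe sets, 41091 had 1 gene symbol, 1801 several, 11721 none, and 62 were controls. The brightest probe set stood for each gene, and genes whose highest group mean reached 4 (log2) were tested, 10717 in all. Limma 3.58.1 in R 4.3.3 fitted 6 group means to all 18 arrays, with Benjamini-Hochberg adjustment over all genes tested and a threshold of 0.05. This code was tested on simulated data. Tables were handled with Python 3.11.15 and pandas 2.3.3, and plots drawn with matplotlib 3.10.9. The number of arrays limits the precision, and no counting depth applies.

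The replicate numbers pair arrays by the data and not by the labels. Deviations from group means correlated between same-numbered arrays of different groups at 0.277 or more, and by 0.546 to 0.942 within a time, CsA against control. Blocked values are therefore printed where they change a call.

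Arrays in full were given for members called in a CsA comparison in either fit, for the 3 cytoplasmic and 2 mitochondrial members with the largest difference at each time, and for HARS1 and HARS2. Pathway lists name the 2 genes with the largest average difference, and further list genes that were called were named after their values were seen. The 5 genes most like the cytoplasmic mean were named by Pearson's r. The members and lists were chosen with earlier results of these data known. Alternatives covered the block, the level filter, the choice of probe set, normalisation, the variance model and leaving out replicates. Promoter sequences are RefSeq's. A comparison of the proteins was not run.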

Additional observations from a re-analysis of the deposited data

Results flagged for a closer look

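WARS2, the mitochondrial tryptophanyl-tRNA synthetase, stood out because its CsA pairs moved in opposite directions at 24 and 48 h. The difference of CsA minus control was 0.137 on the log2 scale at 24 h, with CsA higher in 3 of 3 replicate pairs (0.25, 0.095 and 0.071). At 48 h it was −0.195, with CsA lower in 3 of 3 pairs (−0.20, −0.33 and −0.058). The change between the times, −0.33 ± 0.17, did not pass the test (limma adjusted p = 0.901). A further WARS2 probe set gave 0.13 at 48 h, opposite in sign.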

How the results depend on the processing

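Blocked by replicate number, the fit gave other counts of calls (replicate block). There 1 cytoplasmic gene was called higher with CsA at 48 h, and 5 cytoplasmic genes higher and 1 mitochondrial gene lower on average, where the unblocked fit called none. In control the block called 2 cytoplasmic genes lower at 48 h against 24 h, and 2 lower and 1 mitochondrial gene higher at 48 h against 12 h. Without the level filter, with quantile normalisation or with a trended robust variance, 1 cytoplasmic gene was called lower at 48 h against 12 h in control. Without the filter 0 cytoplasmic genes were lower and 1 mitochondrial gene was higher at 48 h against 12 h with CsA. Without probe sets that may cross-hybridise, the cytoplasmic CsA median was 0.1989 at 48 h and 0.1025 on average, and YARS1 turned to −0.01983 on average and to −0.2868 at 48 h against 24 h with CsA, where its dim probe set takes its place.

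Leaving out replicates gave these ranges. The cytoplasmic CsA median was 0.1127 to 0.3946 at 48 h, lowest without control replicate 1. The mitochondrial median was −0.08539 to −0.009947 at 12 h, −0.08632 to −0.02402 at 24 h and −0.1262 to 0.07116 at 48 h, and 0 to 1 mitochondrial genes were called lower at 48 h and 0 to 1 on average. In control at 24 h against 12 h the cytoplasmic median was −0.1969 to 0.006203 and the mitochondrial one −0.008939 to 0.07232. At 48 h against 24 h the control calls were 3 to 10 cytoplasmic genes higher, 0 to 1 mitochondrial genes higher and 0 to 2 lower, with a mitochondrial median of −0.159 to −0.008597. At 48 h against 12 h they were 2 to 10 cytoplasmic genes higher and 0 to 1 lower, 0 to 1 mitochondrial genes higher and 0 to 2 lower, with a mitochondrial median of −0.2269 to −0.05723. In CsA arrays, a comparison added after seeing the data, the mitochondrial median was −0.0711 to 0.02077 at 24 h against 12 h. At 48 h against 24 h the CsA calls were 6 to 10 cytoplasmic genes higher, 0 to 1 mitochondrial genes higher and 2 to 4 lower. At 48 h against 12 h they were 9 to 11 cytoplasmic genes higher, and 0 to 1 cytoplasmic and 1 to 4 mitochondrial genes lower, with medians of 0.6285 to 0.7738 for cytoplasmic and −0.166 to 0.0497 for mitochondrial genes. The cause of these shifts was not tested.

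With 3 arrays a group the precision was limited, and replicate number took 71.5% of the within-group sum of squares over all genes. Every call in the average CsA comparison rested on the block, except for AARS2, which passed unblocked in 2 of 21 fits that left out arrays. At 48 h against 24 h in control, CARS1, WARS1 and YARS1 passed in all 21 such fits and TARS1 in 11. The block changed no call of the named members beyond those printed and YARS2 at 48 h against 12 h with CsA (−0.31, limma adjusted p = 0.0303).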
